A study of Mus musculus with 36 samples.

Results

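Cathepsins and lysosomal membrane glycoproteins were followed on mouse expression arrays of microglia and of the microglial cell line BV-2. The members were 10 genes: 7 cathepsins (Ctsb, Ctsc, Ctsd, Ctsh, Ctsl, Ctss and Ctsz), the membrane proteins Lamp1 and Lamp2, and the macrophage glycoprotein Cd68. They were chosen by symbol, and every probe set listed with 1 of these symbols was kept, which gave 18 of the 22690 probe sets and 10 of the 12394 genes named on the array. Ctsb and Lamp2 had 4 probe sets each, Ctsz had 3 and each other member had 1.

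The series holds 36 arrays of total RNA in 18 groups of 2 biological replicates. Primary microglia came from mice labelled Usp18 ko (KO), from Usp18_C61A mice (C61A) or from wild type mice (WT), and BV-2 cells carried either an siRNA against Usp18 or a control siRNA. Each was taken after 0 h, 6 h and 24 h with interferon-beta (IFN-b) at 500 U/ml, the 0 h arrays being untreated. KO and C61A are germline changes carried by all cells of the mouse, BV-2 is a transformed line with transient knockdown, and strain, age, the way the microglia were isolated and the number of animals behind an array are not given in the labels used here. WT microglia appear in 2 runs of the deposition order, run 1 beside KO and run 2 beside C61A, and each mutant was compared with WT of its own run. The labels do not say what separates the runs. The RNA is bulk, so fewer cells of a type and less RNA per cell cannot be told apart. The p-values rest on the spread between the 2 replicates of each group, pooled over all groups fitted together. The limma software also moderates this spread across probe sets.

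Cathepsins are the proteases of the lysosome. Most are cysteine proteases that are made as inactive precursors and activated in the acid of the endosome and lysosome. Cathepsin D is an aspartic protease, cathepsin C removes dipeptides and activates granule serine proteases, cathepsin H acts mainly as an aminopeptidase, cathepsin Z as a carboxypeptidase, and cathepsins B and L cut within proteins, cathepsin B also from the carboxyl end. Cathepsin S trims the invariant chain from class II molecules in antigen-presenting cells. LAMP1 and LAMP2 are the abundant glycoproteins of the lysosomal membrane, a splice form of LAMP2 serving as the receptor of chaperone-mediated autophagy, and CD68 is a related glycoprotein of late endosomes in macrophages and microglia. USP18 removes the ubiquitin-like protein ISG15 from its targets and, apart from that activity, holds back signalling at the type I interferon receptor. The C61A change replaces its catalytic cysteine.

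The promoter windows of Ctsc, Ctss and Lamp2 are shown because these 3 genes changed together at 24 h of IFN-b in C61A cells. Each is the 250 bases before the annotated start, from RefSeq on GRCm38.p6, 5′ to 3′ on the gene's strand. Capitals mark matches to the interferon-stimulated response element core (GAAA, any 2 bases, GAAA), the gamma-activated site TTCNNNGAA, the E-box CACGTG or the lysosomal CLEAR element (the E-box with GT before it and AC after it), each searched on both strands, and every CLEAR match also holds an E-box. Ctsc lies at chr7:88277835-88278084 on the plus strand, Ctss at chr3:95526536-95526785 on the plus strand and Lamp2 at chrX:38456461-38456710 on the minus strand.
Ctsc: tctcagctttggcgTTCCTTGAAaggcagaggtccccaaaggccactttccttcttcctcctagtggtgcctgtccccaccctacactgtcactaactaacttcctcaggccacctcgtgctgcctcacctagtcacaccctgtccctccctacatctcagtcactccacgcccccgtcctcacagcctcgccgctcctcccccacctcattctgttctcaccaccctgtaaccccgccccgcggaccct
Ctss: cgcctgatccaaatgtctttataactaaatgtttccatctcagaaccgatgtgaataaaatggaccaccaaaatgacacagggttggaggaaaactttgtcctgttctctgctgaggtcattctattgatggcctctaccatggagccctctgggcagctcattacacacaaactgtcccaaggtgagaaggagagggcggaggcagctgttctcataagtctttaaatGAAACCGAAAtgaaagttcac
Lamp2: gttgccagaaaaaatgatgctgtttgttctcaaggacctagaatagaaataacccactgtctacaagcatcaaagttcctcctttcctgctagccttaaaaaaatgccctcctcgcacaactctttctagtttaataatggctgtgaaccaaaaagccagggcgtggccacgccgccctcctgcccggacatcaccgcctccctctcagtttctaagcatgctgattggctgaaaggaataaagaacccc

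The Ctss window holds a response element core whose first base is at -21 from the start, the Ctsc window a gamma-activated site from -236, and the Lamp2 window none of the 4 motifs. Of the 10 members 8 have a promoter entry, and 2 of these windows (Ctss and Lamp1) hold the response element core, 1 (Ctsc) the gamma-activated site, 3 (Ctsd, Ctsl and Lamp1) an E-box and 0 the CLEAR element. All 250 bases of the Ctsl window and the last 61 of the Ctsc window lie inside the annotated gene. The same letters occur in 2.98%, 7.02%, 6.02% and 0.24% of 32851 mouse promoter windows of this length. These matches describe letters and not binding.

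Several arrays stood apart or went against their labels. Over 11 interferon-induced control genes, the mean log2 level was 11.87 to 12.57 on the 6 KO arrays, untreated ones included, against 5.85 and 6.11 on untreated WT arrays of run 1. Untreated WT replicate 1 of run 2 stood at 11.49, near treated WT, while its partner stood at 6.86. C61A replicate 2 at 6 h stood at 9.16 against 11.70 in its partner. BV-2 Usp18 siRNA replicate 2 at 6 h had a mean over 8 microglia markers of 9.67, against 6.20 to 7.76 on the other 11 BV-2 arrays. These 3 are called the doubted arrays. Usp18 itself read 3.77 to 6.42 in KO and 5.68 to 12.56 in WT of run 1. It read 7.92 and 9 in untreated BV-2 cells with Usp18 siRNA and 8.38 and 8.59 with control siRNA, and 11.07 and 11.48 against 11.51 and 11.73 at 24 h. The astrocyte marker mean was 5.71 to 9.17 in run 2 and 5.03 to 6.28 in run 1.

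Most member probe sets lay near the top of the arrays. In primary microglia Ctss ranked at the 99.6 to 99.9 percentile of its array and Lamp1 at the 98.6 to 99.6 percentile. Ctsh ranked at the 88.1 to 97.5 percentile in microglia. In BV-2 cells the order was kept for Ctss (99.2 to 99.9) and Ctsl (99.6 to 99.9), while Ctsh lay at the 5.7 to 90.7 percentile, the highest value coming from the Usp18 siRNA array with raised microglia markers. Values are log2 intensities of a probe set, so a percentile describes brightness and does not rank genes by amount of RNA.

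**Figure D1:**
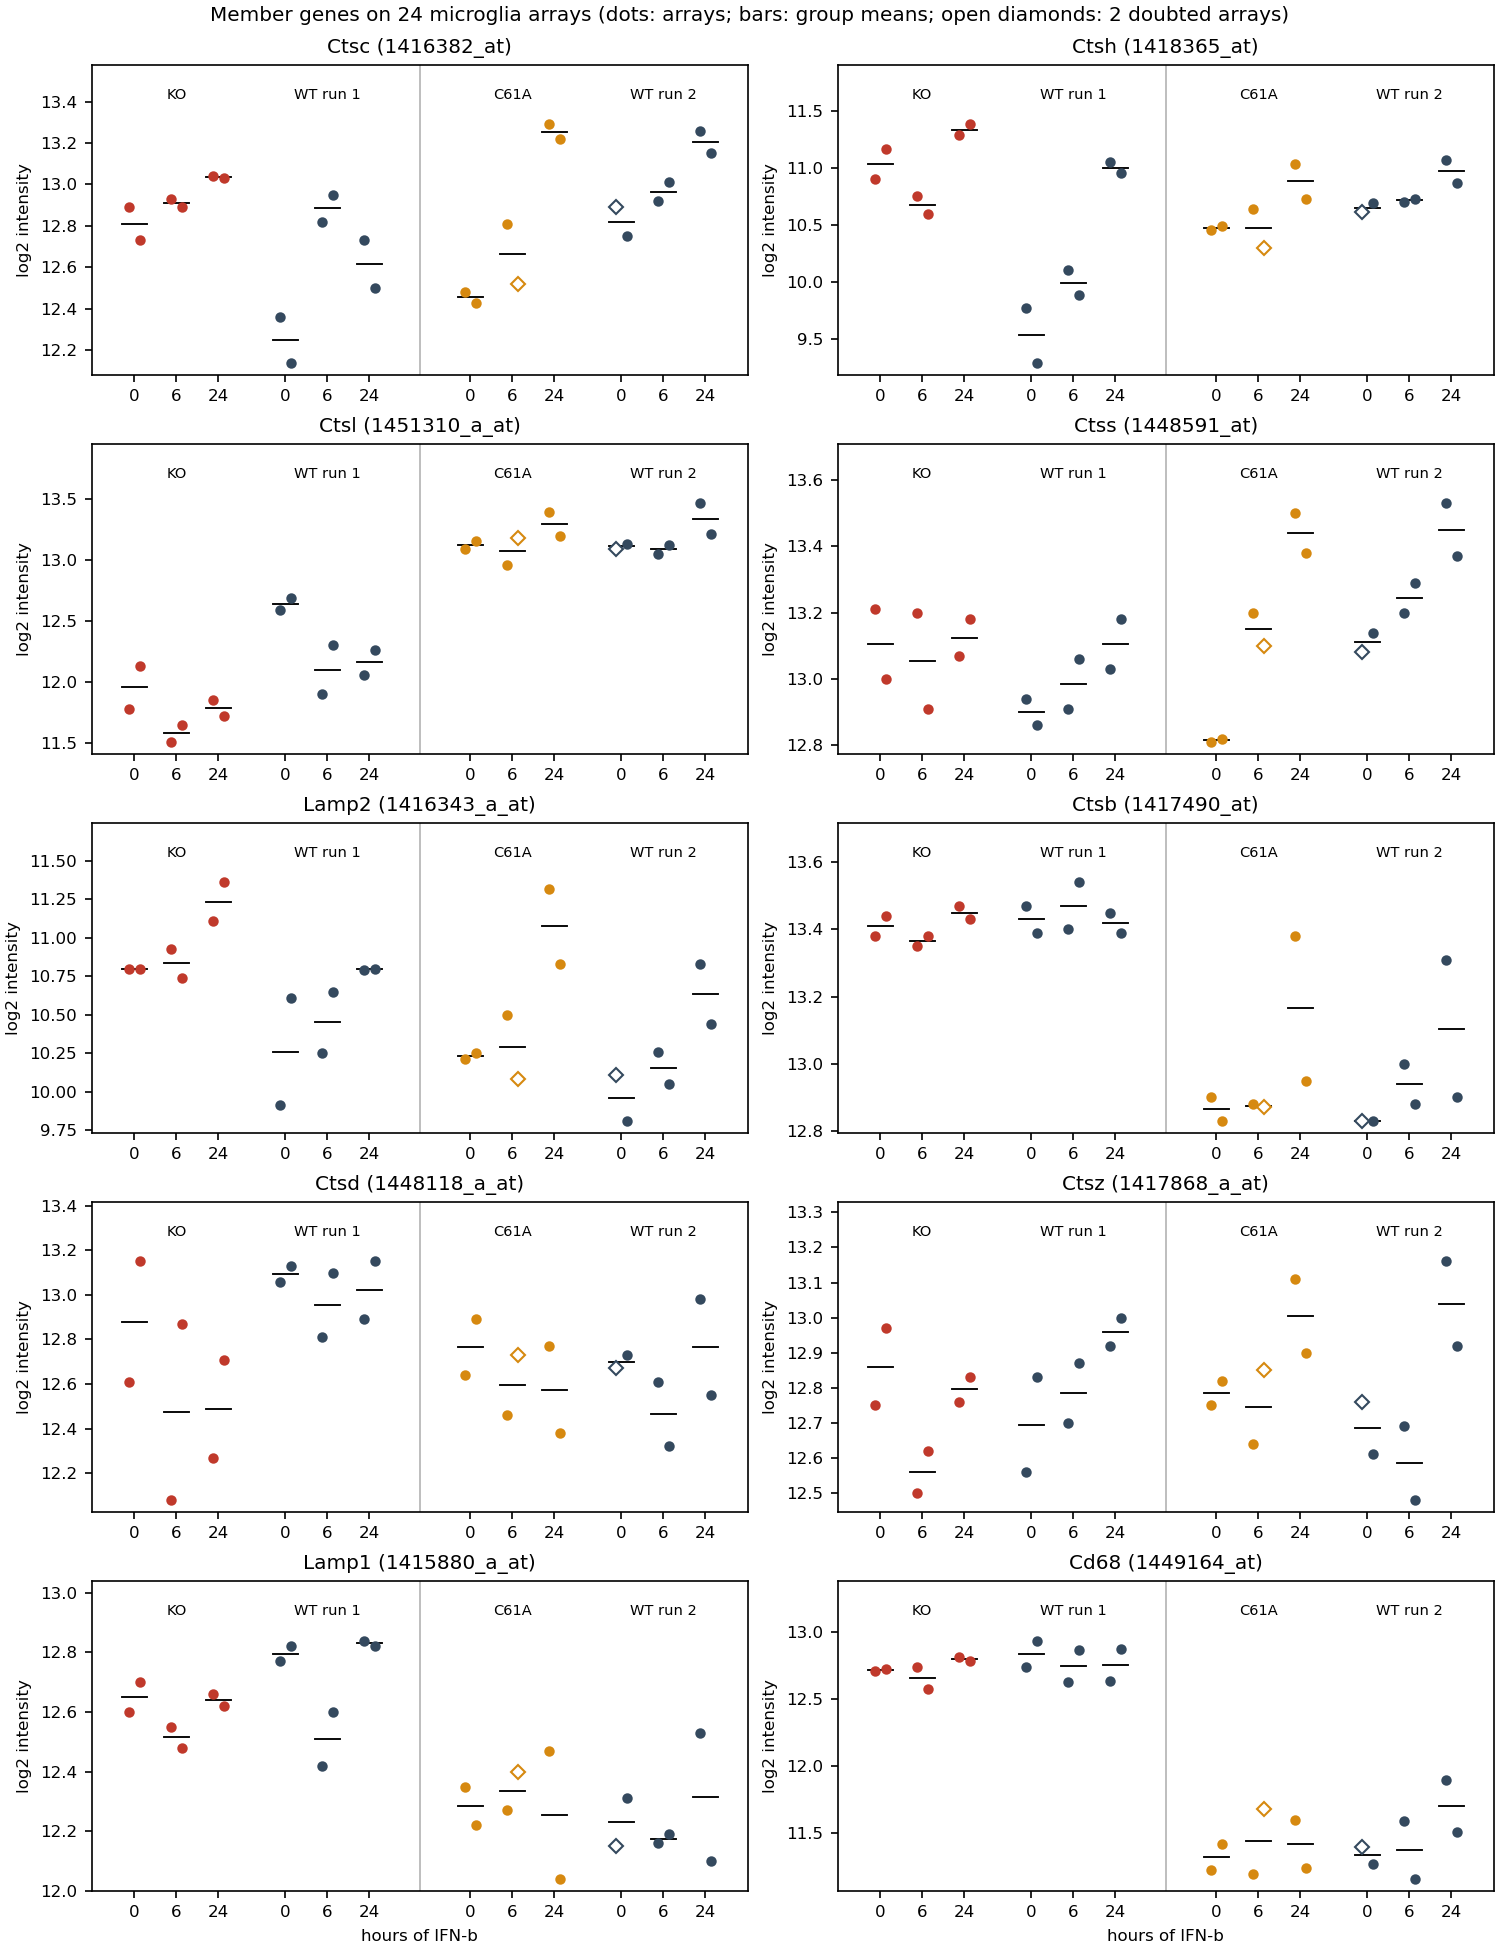
Log2 intensity (vertical axes) of 1 probe set of each of the 10 member genes on the 24 microglia arrays at 0 h, 6 h and 24 h of IFN-b (horizontal axes), in KO and WT of run 1 and C61A and WT of run 2; dots are arrays, bars are group means and open diamonds are the 2 doubted microglia arrays. Untreated WT arrays of run 1 are the lowest for Ctsh (9.77 and 9.29), and Cd68 is lower in run 2 in both genotypes.

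Untreated KO microglia differed from WT of the same run in 3 of the 18 member probe sets, against 14.2% of the 13569 probe sets tested. Ctsh and Ctsc were higher and Ctsl was lower. Throughout, limma was fitted to all probe sets, a probe set counts as called below a Benjamini-Hochberg adjusted p of 0.05, and each log2 difference is followed by ± its standard error. The median difference of the members was 0.12, beside -0.11 for all probe sets.

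Ctsh had the largest difference among the members. It read 10.90 and 11.16 in untreated KO cells, against 9.77 and 9.29 in untreated WT cells of run 1. Both KO arrays lay more than 1 log2 unit above both WT arrays, with a difference of 1.5 ± 0.18 (limma adjusted p = 2.3e-04, 95% interval 1.12 to 1.89). The call held when each of the 24 microglia arrays was left out in turn, with differences of 1.26 to 1.74. At 6 h Ctsh read 10.75 and 10.59 in KO cells and 10.10 and 9.88 in WT cells, a difference of 0.68 ± 0.18 (limma adjusted p = 0.0366). KO was still above WT on both arrays, but the call was lost without KO replicate 1 or either WT array of that time (adjusted p 0.282, 0.0919 and 0.194), and with run 1 fitted alone (0.0700). At 24 h the arrays read 11.29 and 11.38 in KO cells and 11.05 and 10.95 in WT cells, and the difference of 0.33 ± 0.18 was not called (limma adjusted p = 0.188).

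Ctsc, the dipeptidyl peptidase, read 12.89 and 12.73 in untreated KO cells against 12.36 and 12.14 in untreated WT cells. The groups did not overlap, and the difference was 0.56 ± 0.14 (limma adjusted p = 0.0195). It was lost without KO replicate 1 (0.48, adjusted p = 0.177) or WT replicate 2 (0.45, adjusted p = 0.169). At 6 h the KO arrays at 12.93 and 12.89 lay within the WT arrays at 12.82 and 12.95, and at 24 h they read 13.04 and 13.03 against 12.73 and 12.50 in WT. The 24 h difference of 0.42 ± 0.14 passed (limma adjusted p = 0.0412) as the only member of 18, beside 27.5% of all probe sets. It was lost in 9 of 24 fits that left out 1 array, among them every fit without 1 of the compared arrays. It was also lost with no low-value filter (limma adjusted p = 0.0517), with culture as a random block (0.0557) and with run 1 fitted alone (0.0735).

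Ctsl moved the other way. It read 11.78 and 12.13 in untreated KO cells, against 12.59 and 12.69 in untreated WT cells, and was lower on both KO arrays, with a difference of -0.69 ± 0.17 (limma adjusted p = 0.0181). The call was lost without KO replicate 1 (-0.51, adjusted p = 0.206), WT replicate 1 (-0.74, 0.0679) or WT replicate 2 (-0.64, 0.122). KO arrays stayed below WT arrays at 6 h, with 11.51 and 11.65 against 11.90 and 12.30, and at 24 h, with 11.85 and 11.72 against 12.06 and 12.26. Those differences, -0.52 ± 0.17 and -0.38 ± 0.17, were not called (limma adjusted p = 0.0802 and 0.117). At 6 h Ctsh was the only member called, beside 7.54% of all probe sets.

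The other members were not called between KO and WT at any of the 3 times. Cd68 read 12.58 to 12.82 in KO cells and 12.63 to 12.94 in WT cells of run 1. Lamp1 spanned 12.48 to 12.70 in KO cells and 12.42 to 12.84 in WT cells, and Ctsd 12.08 to 13.15 in KO cells and 12.81 to 13.15 in WT cells. Ctsb showed how probe sets of 1 gene can part. Its brightest, 1417490_at, gave 13.35 to 13.47 in KO cells and 13.39 to 13.54 in WT cells, near the top of the scale of the arrays, while 1417491_at gave 9.86 and 10.89 in untreated KO cells and 11.25 and 11.58 in untreated WT cells, a difference of -1.04 ± 0.46 (limma adjusted p = 0.138). Differences in Lamp2 at 0 h were 0.12 to 0.54 and not called. Its 1416343_a_at read 10.80 on both untreated KO arrays and 9.91 and 10.61 on untreated WT arrays.

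Single markers of other cells differed between the genotypes at 0 h, where 14.2% of all probe sets were called. The border macrophage marker mean was 6.12 to 6.75 in KO and 7.14 to 7.79 in WT of run 1 over 5 genes, of which 3 were tested and 1 (Mrc1) was lower in KO at 0 h. Lyve1 and Cd163 read under 4 on all arrays of both genotypes. Of 8 microglia markers Aif1 was higher and Cx3cr1 lower in untreated KO cells, with a list mean of 10.25 to 11.05 in KO against 10.95 to 11.30 in WT. Of 5 markers of monocytes and granulocytes, 4 of them on the array, Plac8 was higher in KO at 0 h. The part of these cells and of the raised interferon genes in the member differences was not tested.

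**Figure D2:**
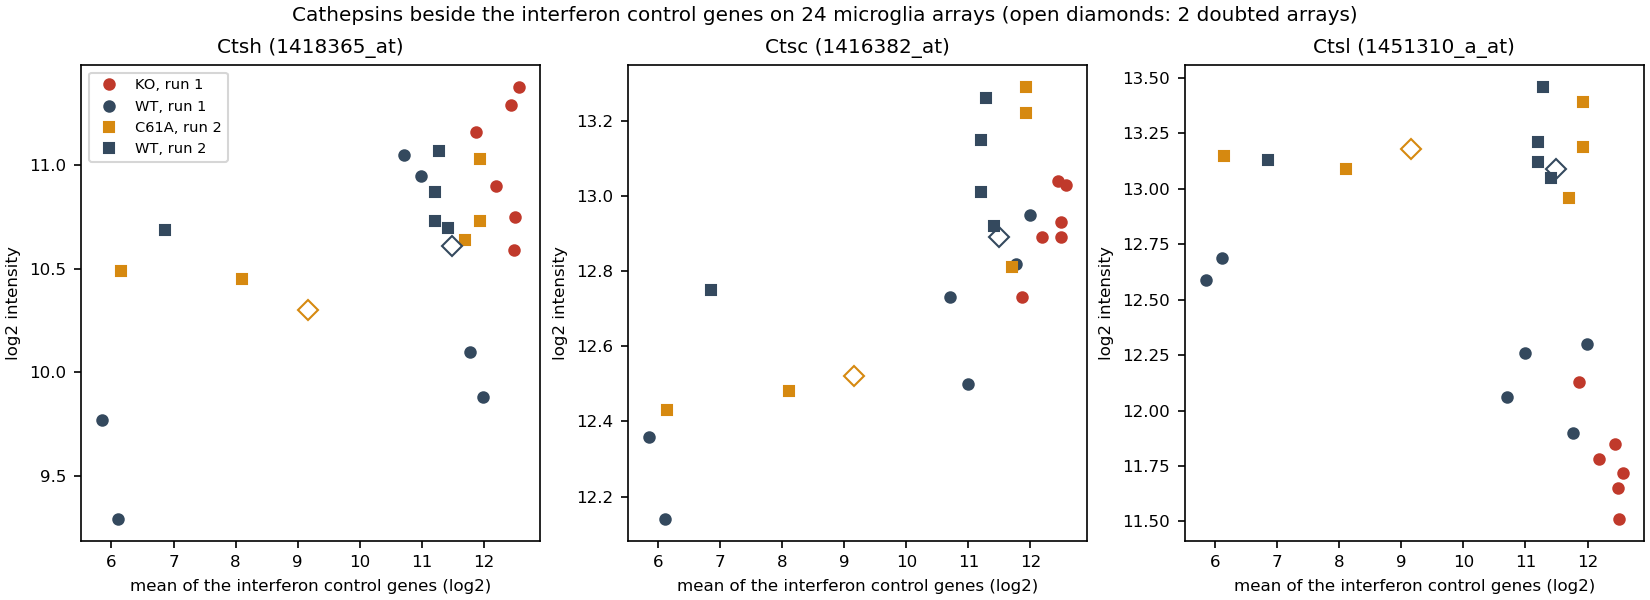
Log2 intensity of Ctsh, Ctsc and Ctsl (vertical axes) against the mean log2 level of 11 interferon-induced genes (horizontal axes) on each microglia array, with genotypes and runs told apart by colour and marker. The KO arrays lie at 11.87 to 12.57 on the horizontal axes, and the lowest Ctsh values, 9.77 and 9.29, are untreated WT arrays of run 1.

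Ctsh was not low on every array with low interferon-induced genes. In run 2, C61A arrays at 0 h had interferon means of 8.11 and 6.15 with Ctsh at 10.45 and 10.49, and untreated WT replicate 2, with an interferon mean of 6.86, had Ctsh at 10.69. In run 1 untreated WT arrays had interferon means of 5.85 and 6.11 with Ctsh at 9.77 and 9.29. The cause of this gap was not tested.

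The IFN-b response of WT microglia, averaged over both runs, called Ctsc at 6 h and Ctsh at 24 h among the 18 member probe sets. The share of all probe sets called was 12.7% at 6 h and 2.49% at 24 h. At 24 h 15 of the 18 member differences were positive with a median of 0.26, beside a median of -0.04 for all probe sets. At 6 h the member median was 0.03, beside -0.11.

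Ctsh in WT of run 1 read 9.77 and 9.29 at 0 h, 10.10 and 9.88 at 6 h, and 11.05 and 10.95 at 24 h. Both 24 h arrays lay above every earlier WT array of that run. In run 2 it read 10.61 and 10.69 at 0 h, 10.70 and 10.73 at 6 h, and 11.07 and 10.87 at 24 h, and its untreated arrays stood above the untreated and 6 h arrays of run 1. Averaged over runs the 24 h difference was 0.89 ± 0.13 (limma adjusted p = 0.00218). Within run 1 it was 1.47 ± 0.18 (adjusted p = 8.2e-04, limma), where 1.9% of all probe sets were called, and within run 2 it was 0.32 ± 0.18 (adjusted p = 0.615, limma). The difference between the runs in this response was -1.15 ± 0.26, with an adjusted p of 0.398 by limma (0.00737% of all probe sets called) and 0.0480 with culture as a random block. The averaged call and the run 1 call held in all 24 fits that left out 1 array. Ctsh was also higher at 24 h than at 6 h in WT, by 0.63 ± 0.13 (limma adjusted p = 0.0176), where 4.14% of all probe sets were called. Of 24 leave-outs 6 lost this call, each without 1 of the compared arrays.

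Ctsc in WT of run 1 read 12.36 and 12.14 at 0 h, 12.82 and 12.95 at 6 h, and 12.73 and 12.50 at 24 h. All 4 treated arrays lay above the untreated ones. In run 2 the arrays read 12.89 and 12.75, 12.92 and 13.01, and 13.26 and 13.15 at the same times. The 6 h difference over both runs was 0.39 ± 0.10 (limma adjusted p = 0.0231), made up of 0.64 ± 0.14 in run 1 (adjusted p = 0.00698, limma, 22.3% of all probe sets called) and 0.15 ± 0.14 in run 2 (0.999, beside 0.00737% called). It was lost in 5 of 24 leave-outs, each without 1 of the compared arrays. Without the untreated WT array of run 2 that had raised interferon genes it was 0.43. Ctsl fell in run 1 at 6 h, with 11.90 and 12.30 at 6 h against 12.59 and 12.69 untreated, by 0.54 on the log2 scale (limma adjusted p = 0.0368). That call was lost in 3 of 24 leave-outs, those without either untreated array or without 6 h replicate 1 of run 1. It was also lost with median centring (limma adjusted p = 0.109), with quantile normalization (0.0612) and with run 1 fitted alone (0.0784). In run 2 Ctsl read 13.05 and 13.12 at 6 h against 13.09 and 13.13 untreated.

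Replicate numbers of WT arrays marked cultures that deviated together over time. With culture as a block more members passed at 24 h, and so did more of all probe sets. With culture as a fixed block 6 probe sets were called, namely Ctsh, Ctsc, 2 of the 3 for Ctsz and 2 of the 4 for Lamp2, and with a random block 7, Ctss being added. Of all 13569 probe sets, 2182 were called with the fixed block and 1659 with the random block, against 338 without a block. Under the random block 3 members were called at 6 h, Ctsl and Lamp2 1428094_at beside Ctsc. Over all probe sets 4075 were called there, against 1717 without the block. Without the block, Ctsz 1417870_x_at changed by 0.42 ± 0.13 (limma adjusted p = 0.0985) and Lamp2 1416343_a_at by 0.61 ± 0.17 (0.0828). All 18 differences were positive in run 2 at 24 h, with a median of 0.35 and 0 calls, beside 0.0147% of all probe sets called and 7 members at an unadjusted p under 0.05.

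KO microglia gave 0 of 18 member calls after IFN-b, at 6 h and at 24 h (limma), where 6.46% and 3.19% of all probe sets were called. At an unadjusted p under 0.05 there was 1 member at each time. Ctsh in KO read 10.90 and 11.16 at 0 h, 10.75 and 10.59 at 6 h, and 11.29 and 11.38 at 24 h. The KO change at 24 h was 0.30 ± 0.18 (limma adjusted p = 0.365). The difference between the KO and the WT response of run 1 in Ctsh was -1.17 ± 0.26 at 24 h, just outside the threshold (limma adjusted p = 0.0604), where 0.427% of all probe sets passed. Across the alternative fits this p reached 0.00648, and without the 3 doubted arrays it was 0.0327.

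C61A microglia did not differ from WT of run 2 in any member probe set by the test, with 0 of 18 calls at 0 h, 6 h and 24 h, beside 0.00737%, 0.00737% and 0.0221% of all probe sets (limma). At an unadjusted p under 0.05 there were 1, 0 and 0 members and 593, 403 and 885 probe sets in all. Intervals show what the arrays could resolve. For Ctsh at 0 h C61A read 10.45 and 10.49 against 10.61 and 10.69 in WT, a difference of -0.18 with a 95% interval of -0.56 to 0.21. For Ctsc at 0 h C61A read 12.48 and 12.43 against 12.89 and 12.75 in WT, with a difference of -0.36 and an interval of -0.67 to -0.05. The limma adjusted p was 1.00 for both. Both C61A arrays lay below both WT arrays for these genes. With 2 arrays on each side such an order carries little weight, and its share over all probe sets was not computed. Ctsl differed by 0.01 (-0.36 to 0.38). Ctsb 1417491_at had a wide interval, -1.08 to 0.87, around -0.10. The untreated WT group holds the array with raised interferon genes, and without the doubted arrays the count was also 0 at all 3 times.

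**Figure D3:**
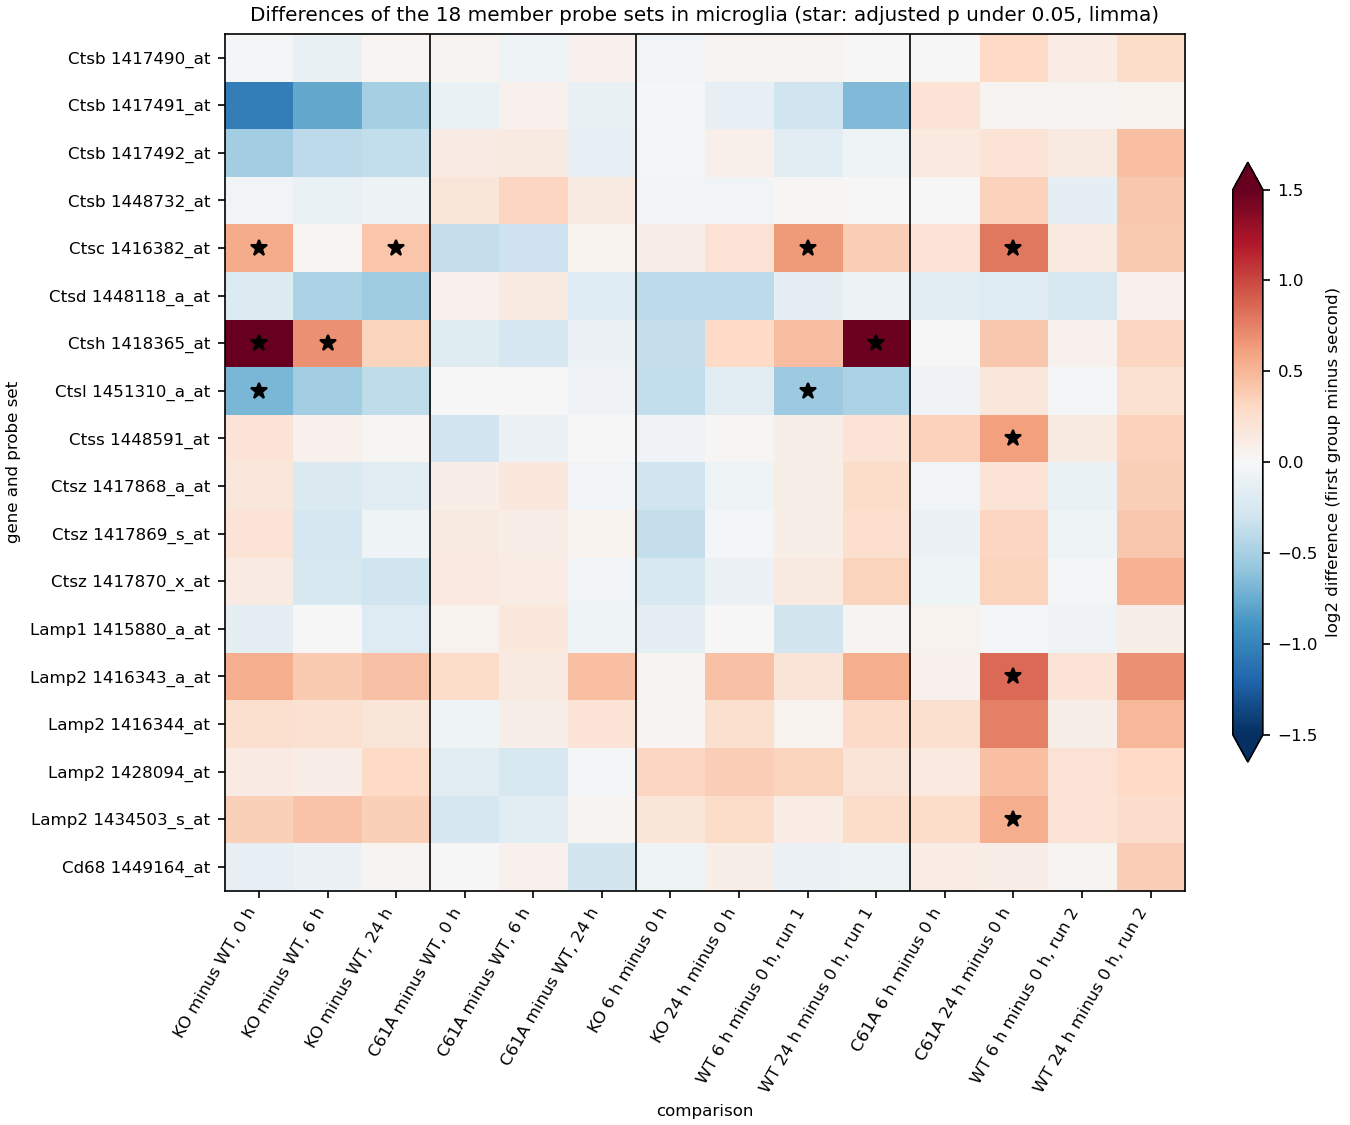
Log2 differences of the 18 member probe sets (rows) in 14 comparisons of microglia (columns), red for higher and blue for lower in the group named first, with a star where limma's adjusted p was under 0.05. Ctsh in KO minus WT at 0 h stands at 1.5, no C61A minus WT cell has a star, and the 4 starred cells of the C61A response at 24 h are Ctsc, Ctss and 2 Lamp2 probe sets.

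Within C61A cells the response at 24 h called 4 of 18 member probe sets, each of them higher, beside 8.45% of all probe sets (4.68% higher). Ctsc read 13.29 and 13.22 at 24 h against 12.48 and 12.43 untreated, a difference of 0.79 ± 0.14 (limma adjusted p = 0.00848). Ctss, which trims the invariant chain, read 13.50 and 13.38 at 24 h against 12.81 and 12.82 untreated, a difference of 0.62 ± 0.14 (limma adjusted p = 0.0186). Treated and untreated arrays did not overlap for either gene. Lamp2 rose by 0.85 ± 0.25 in 1416343_a_at and 0.55 ± 0.16 in 1434503_s_at (limma adjusted p = 0.0455 for both), and the other probe sets gave 0.76 ± 0.23 (0.0565) and 0.45 ± 0.17 (0.111). Most of the 24 fits that left out 1 array dropped one outside the 2 groups compared and kept the difference. The Ctsc call was lost without untreated replicate 2 or 24 h replicate 1. The Ctss call and both Lamp2 calls were lost whichever of the compared arrays was left out. Differences then ran from 0.56 to 0.68 for Ctss, 0.60 to 1.09 for 1416343_a_at and 0.44 to 0.66 for 1434503_s_at. Each Lamp2 call was lost in 14 of the 24 fits. Both Lamp2 calls were also lost with no low-value filter (limma adjusted p = 0.0602 and 0.0577) and with run 2 fitted alone (0.0773 and 0.0833), and 1434503_s_at with quantile normalization (0.0767). Of the members 16 of 18 had positive differences, with a median of 0.32, beside -0.12 for all probe sets. At 6 h 0 of 18 were called by limma, beside 0.0221% of all probe sets, and 1 had an unadjusted p under 0.05. The C61A response did not differ from the WT response by the test in any member at either time (0 calls among 18, and 0 among all probe sets).

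The KO effect was larger than the C61A effect for 2 members at 0 h, each effect taken against WT of its own run, beside 10.7% of all probe sets. For Ctsh the effects were 1.5 in KO and -0.18 in C61A, and they differed by 1.68 ± 0.26 (limma adjusted p = 0.00227). For Ctsc they were 0.56 and -0.36, and differed by 0.92 ± 0.20 (limma adjusted p = 0.0136). The Ctsh call held in all 24 leave-outs, while the Ctsc call was lost without KO replicate 1 (adjusted p = 0.0701), WT replicate 2 of run 1 (0.0636) or WT replicate 1 of run 2 (0.0653), each at 0 h. At 6 h and 24 h the Ctsh difference was 0.93 and 0.42 (limma adjusted p = 0.0956 and 0.382) and no member was called, beside 0.258% and 2.42% of all probe sets. Run and mutant cannot be told apart here beyond what the WT arrays of each run allow.

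WT microglia of the 2 runs differed from each other in many members. Over all probe sets 28.6%, 33.8% and 34.1% were called between runs at 0 h, 6 h and 24 h. Cd68 read 11.40 and 11.27 in untreated WT of run 2, against 12.74 and 12.94 in run 1, a difference of -1.5 ± 0.21 (limma adjusted p = 1.6e-04), and it remained lower in run 2 at 6 h (-1.37) and at 24 h (-1.05). C61A arrays, also of run 2, read 11.20 to 11.68, below every KO and WT array of run 1. At 0 h all 4 Ctsb probe sets were lower in run 2, with differences of -0.60 to -2.08, and so was Lamp1 (-0.56). Ctsl was higher in run 2, with 13.46 and 13.21 at 24 h against 12.06 and 12.26 in run 1, a difference of 1.17 ± 0.17 (limma adjusted p = 1.8e-04). Ctsh differed by 1.12 ± 0.18 untreated (limma adjusted p = 5.5e-04) and by -0.03 at 24 h (0.913). Lamp2 1434503_s_at was higher in run 2 by 0.69 at 0 h. Of 9 member probe sets called at 0 h 5 were called without the doubted arrays, and those lost were Ctsc, Lamp1, Ctsb 1417490_at and Ctsb 1417492_at. The microglia marker mean was 9.75 to 10.24 in run 2 and 10.25 to 11.30 in run 1, and its part in these differences was not tested.

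Lamp2 gave the clearest response in BV-2 cells. With Usp18 siRNA, 4 of 17 tested member probe sets were higher at 24 h than untreated and 0 lower, beside 15.5% of all 12231 probe sets tested (5.89% higher), and all 4 were the probe sets of Lamp2. Ctsh was not tested because it passed the low-value filter on fewer than 2 BV-2 arrays. Members had a median change of 0.33, positive in 15 of 17, beside -0.14 for all probe sets.

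Lamp2 1416343_a_at with Usp18 siRNA read 10.19 and 10.59 at 0 h, 10.82 and 10.64 at 6 h, and 11.40 and 11.43 at 24 h. With control siRNA it read 9.51 and 9.89 at 0 h, 10.02 and 10.36 at 6 h, and 10.56 and 11.11 at 24 h. In both arms the mean was higher at each later time, and at each time both Usp18 siRNA arrays lay above both control arrays. The 24 h change was 1.03 ± 0.24 with Usp18 siRNA (limma adjusted p = 0.0252) and 1.14 ± 0.24 with control siRNA (0.111). For 1416344_at the changes were 0.86 ± 0.22 (limma adjusted p = 0.0339) with Usp18 siRNA and 1.03 ± 0.22 (0.124) with control siRNA. Changes of a like size stood on different sides of the threshold in the 2 arms, with 15.5% of all probe sets called with Usp18 siRNA and 0.54% with control siRNA.

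The remaining Lamp2 probe sets changed by 0.78 ± 0.22 (1428094_at, limma adjusted p = 0.0417) and 0.72 ± 0.19 (1434503_s_at, 0.0327) with Usp18 siRNA, and by 0.19 and 0.25 with control siRNA. At 24 h 1428094_at read 11.61 and 12.24 with Usp18 siRNA, against 11.20 and 11.40 with control siRNA. The difference between the responses was -0.11, -0.16, 0.59 and 0.48 over the 4 probe sets in the order 1416343_a_at, 1416344_at, 1428094_at and 1434503_s_at (limma adjusted p = 0.908, 0.845, 0.540 and 0.548), and 0.00818% of all probe sets passed this test. Calls for Lamp2 with Usp18 siRNA were lost in 3, 8, 9 and 9 of 12 fits that left out 1 array, in the same order. Each was lost without untreated Usp18 siRNA replicate 1 and without its 24 h replicate 2. The call for 1428094_at was also lost with no low-value filter (limma adjusted p = 0.0599). The suffix _s_at marks a probe set that can match several transcripts, and whether the probe sets read different splice forms of Lamp2 was not tested.

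**Figure D4:**
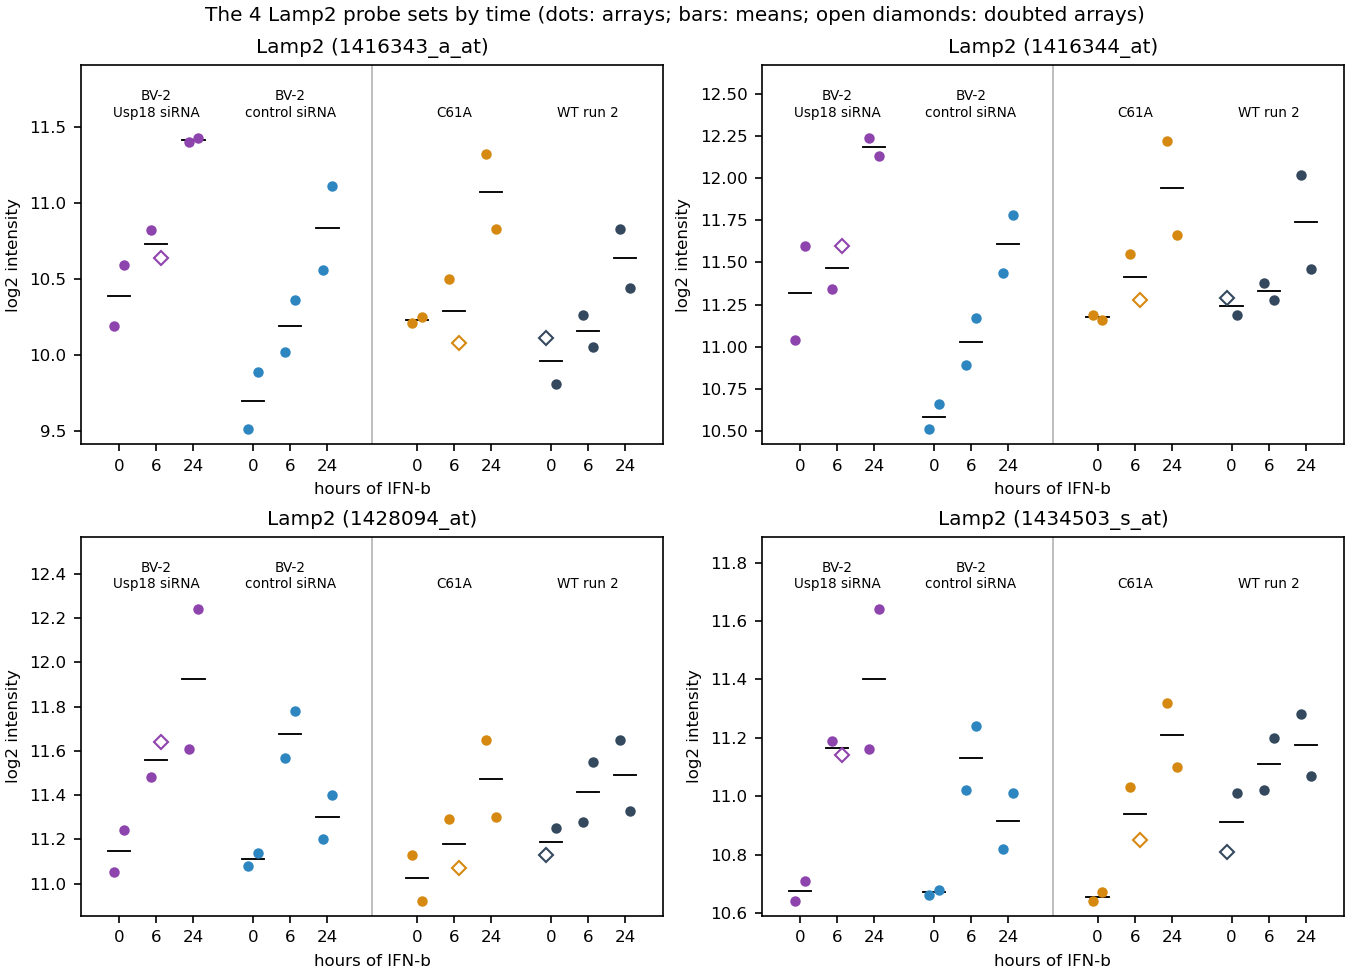
Log2 intensity (vertical axes) of the 4 Lamp2 probe sets (panels) at 0 h, 6 h and 24 h of IFN-b (horizontal axes) in BV-2 cells with Usp18 siRNA and with control siRNA, and in C61A and WT microglia of run 2; dots are arrays, bars are group means and open diamonds are doubted arrays. In 1416343_a_at the Usp18 siRNA arrays lie above the control siRNA arrays at each time, with 11.40 and 11.43 against 10.56 and 11.11 at 24 h.

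Usp18 siRNA against control siRNA gave 0 of 17 member calls at 0 h, 6 h and 24 h (limma), beside 0%, 0% and 3.46% of all probe sets. Members at an unadjusted p under 0.05 numbered 3, 0 and 4. At 24 h the Lamp2 differences were 0.58, 0.57, 0.62 and 0.48, with 95% intervals of 0.04 to 1.13, 0.07 to 1.08, 0.14 to 1.11 and 0.06 to 0.90 and limma adjusted p of 0.153, 0.138, 0.106 and 0.134. At 0 h they were 0.69, 0.74, 0.03 and 0.00. The Usp18 level overlapped between the arms at 0 h and 6 h, and lay lower with Usp18 siRNA at 24 h by less than 1 log2 unit.

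Ctss in BV-2 cells was not called in either arm. With Usp18 siRNA it read 12.85 and 12.89 at 0 h, 13.06 and 13.08 at 6 h, and 13.33 and 13.23 at 24 h. With control siRNA it read 12.57 and 12.53, 12.94 and 12.88, and 13.05 and 13.19. Treated arrays lay above untreated ones in both arms, with 24 h changes of 0.41 ± 0.14 (limma adjusted p = 0.0731) and 0.57 ± 0.14 (0.200). With control siRNA 0 of 17 members were called at 6 h or 24 h by limma, beside 0.858% and 0.54% of all probe sets, and 3 at each time had an unadjusted p under 0.05. With Usp18 siRNA at 6 h 0 were called, beside 1.73%, and 2 had an unadjusted p under 0.05. Ctsc on the 6 h Usp18 siRNA arrays read 10.51 and 12.6, Ctsb 1417491_at 5.26 and 8.74, and Ctsh 3.27 and 9.75, the high value each time being the array with raised microglia markers.

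Untreated BV-2 cells with control siRNA differed from untreated WT microglia in 11 of 18 member probe sets, 8 lower and 3 higher, beside 57.3% of all 14222 probe sets tested (27.3% lower and 30% higher). The median of the members was -0.43 and that of all probe sets 0.01. Cell system and deposition run cannot be told apart in this comparison.

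Ctsh read 3.30 and 3.47 in BV-2 cells, below the array medians, against 9.77 and 9.29 in WT of run 1 and 10.61 and 10.69 in run 2. It was called lower (limma adjusted p = 2.4e-06), but no size is given because the BV-2 values lay below the array medians, and Ctsh entered this fit through the microglia arrays. Over all times Ctsh stayed at 2.72 to 3.58 on 11 BV-2 arrays. Ctsc read 10.15 and 10.62 in BV-2 cells, against 12.36 and 12.14 in WT of run 1 and 12.89 and 12.75 in run 2, a difference of -2.15 ± 0.34 (limma adjusted p = 2.1e-05). The untreated control siRNA arrays lay under all untreated WT arrays for both genes.

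Ctsb was lower in BV-2 cells in its 4 probe sets 1417491_at, 1417490_at, 1417492_at and 1448732_at (limma adjusted p = 1.1e-06, 8.7e-05, 3.9e-06 and 5.4e-05). The first read 5.17 and 5.73 in BV-2 cells, at about the array medians, so its size is not given. The others differed by -0.94 ± 0.17, -2.53 ± 0.35 and -1.29 ± 0.22 in that order. Ctsb 1417490_at read 12.21 and 12.17 in BV-2 cells and 12.83 to 13.54 over all WT arrays. Ctss was lower, at -0.45 ± 0.11 (limma adjusted p = 0.00162), and of the Lamp2 probe sets 1416344_at was lower, at -0.93 ± 0.20 (5.8e-04). Ctsz, a carboxypeptidase, was higher in its 3 probe sets by 0.40 to 0.47 (limma adjusted p = 0.0118 to 0.0298). Ctsz 1417868_a_at read 12.93 and 13.26 in BV-2 cells, against 12.56 and 12.83 in WT of run 1 and 12.76 and 12.61 in run 2. These calls were lost in 1, 1 and 3 of 36 leave-outs, always including the fit without BV-2 control siRNA replicate 2 at 0 h, and that for 1417870_x_at also with quantile normalization (0.0747). Cd68 differed by -0.01 (limma adjusted p = 0.957), although it read 12.01 to 12.27 in control siRNA cells, between the 2 WT runs. Ctsl (0.22, limma adjusted p = 0.193), Lamp1 (-0.17, 0.271) and Ctsd (-0.45, 0.0819) were not called.

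A cathepsin outside the members marked BV-2 cells most. Ctsk, the collagen-degrading cathepsin of osteoclasts, read 13.26 to 13.56 on all 12 BV-2 arrays. It was 4.49 to 5.97 on the microglia arrays except for 3, namely the C61A arrays at 6 h, with 9.45 and 12.39, and WT replicate 1 at 6 h of run 2, with 8.11. Untreated, Ctsk was called higher in BV-2 cells (limma adjusted p = 3.1e-10), with 13.35 and 13.51 in control siRNA cells against 4.79 to 5.63 in WT. The WT values lay below the array medians, so no size is given. Of 8 microglia markers 7 were lower in BV-2 cells, with C1qa at 3.54 to 9.96 there. Of 6 osteoclast markers 3 were tested and higher, namely Ctsk, Mmp9 and Acp5. Only markers that passed the low-value filter were tested. Calcr and Oscar, not tested, were low in BV-2 cells too, at 2.98 to 3.46 and 3.39 to 4.39 on the 11 BV-2 arrays not doubted.

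**Figure D5:**
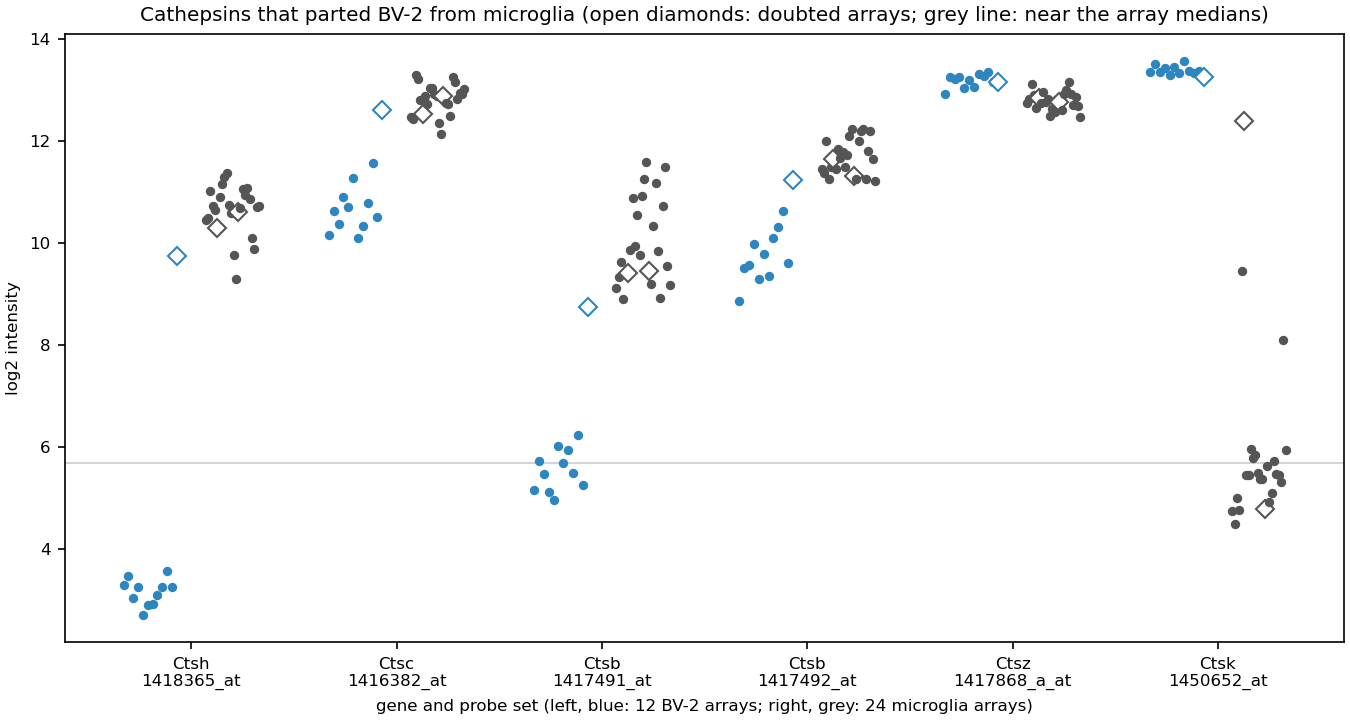
Log2 intensity (vertical axis) of Ctsh, Ctsc, 2 Ctsb probe sets, Ctsz and Ctsk on the 12 BV-2 arrays (blue, left) and the 24 microglia arrays (grey, right), with doubted arrays as open diamonds and a grey line near the array medians. Ctsh lies at 2.72 to 3.58 on 11 BV-2 arrays, and Ctsk at 13.26 to 13.56 on all 12.

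The other lysosomal genes were read from lists chosen with earlier results of these data known. Of 43 further cathepsins and lysosomal hydrolases 34 were tested in microglia. In KO against WT at 24 h 11 were lower and 1 higher, with a median of -0.60, beside -0.08 for all probe sets, of which 17.1% were called lower and 10.4% higher. At 0 h 2 were lower (Asah1, a ceramidase, and Sgsh, a sulphamidase that degrades heparan sulphate) and 1 higher (Acp2, an acid phosphatase), beside 7.37% of all probe sets lower and 6.86% higher, and at 6 h 0 were called. Of the 18 member probe sets 0 were called lower at 24 h, and members and hydrolases were not tested against each other.

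Pla2g15, the lysosomal phospholipase, read 7.30 and 7.92 in KO at 24 h against 10.05 and 10.12 in WT, a difference of -2.48 ± 0.43 (limma adjusted p = 0.00127). Gusb, beta-glucuronidase, read 9.53 and 9.88 against 11.50 and 11.69, a difference of -1.89 ± 0.49 (0.0116). Man2b1, lysosomal alpha-mannosidase, read 10.28 and 10.75 against 12 and 12.15, a difference of -1.56 ± 0.42 (0.0150). KO and WT arrays did not overlap in these 3 genes, which were picked from the called ones by size of change, so this order adds no support. Acp5, tartrate-resistant acid phosphatase, read 3.66 and 3.65 against 5.77 and 4.79, near or below the array medians, and was called lower (0.0158) with no size given. Gla, alpha-galactosidase A, was the 1 that rose, at 10.71 and 10.70 against 9.27 and 9.63, a difference of 1.26 ± 0.28 (0.00555); it was named after its values were seen. The count of 11 lower was 3 without KO replicate 1 at 24 h, 6 without WT replicate 1 and 4 without WT replicate 2, and the mean of border macrophage markers was also lower in KO.

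In the WT response at 24 h 3 hydrolases were higher and 0 lower (Acp2, Idua and Neu1), beside 1.84% of all probe sets higher. With culture as a fixed block 8 were higher, and that block raised the calls over all probe sets, in either direction, from 338 to 2182. In BV-2 cells with Usp18 siRNA at 24 h 0 of 30 hydrolases were called. There 3 of 11 other lysosomal membrane proteins were higher, namely Laptm4a (0.97), Cln3 (1.22) and Tmem192 (1.34), beside 5.89% of all probe sets higher. Both counts changed in some fits that left out 1 array, so neither is firm. Tmem192 was also the 1 of 12 higher in KO at 24 h, by 1.06. Among 14 V-ATPase subunits, which acidify the lysosome, 1 was lower in KO at 0 h, 0 at 6 h, and 2 lower and 1 higher at 24 h, beside 14.2%, 7.54% and 27.5% of all probe sets in either direction. Between untreated BV-2 cells and WT 8 of 34 hydrolases were higher and 13 lower, and 1 of 12 membrane proteins was higher and 5 lower, beside 30% of all probe sets higher and 27.3% lower.

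Of 4 cathepsin inhibitors 1 and of 9 genes of biogenesis and sorting 4 were called in untreated KO cells, beside 14.2% of all probe sets. Leaving out 1 array lowered both counts in some fits. Cst7, which encodes cystatin F, an inhibitor of cathepsin C, read 10.12 and 9.56 in KO against 6.19 and 8.24 in WT of run 1, a difference of 2.62 ± 0.64 (limma adjusted p = 0.0160). Sort1, a sorting receptor, read 6.88 and 7.42 in KO against 8.96 and 9.02 in WT, a difference of -1.84 ± 0.22 (2.4e-04). Grn, whose product progranulin is delivered to lysosomes, read 12.91 and 13.02 against 12.36 and 12.33, a difference of 0.62 ± 0.19 (0.0419). In each case KO and WT arrays did not overlap, but these genes were named because they were called, so this order adds no support. After 24 h of IFN-b WT cells gave changes of 1.83 ± 0.45 for Cst7, -1.23 ± 0.16 for Sort1 and 0.62 ± 0.13 for Grn (limma adjusted p = 0.0482, 1.0e-03 and 0.0251), and this comparison shares the untreated WT arrays of run 1 with the first. The WT calls of Cst7 and Grn were lost in some fits that left out 1 array. The other 2 biogenesis and sorting genes called, both higher in untreated KO cells, were M6pr and Gga1.

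Class II genes, whose invariant chain is a substrate of cathepsin S, were higher in untreated KO cells in 4 of 5 tested, beside 6.86% of all probe sets. Leaving out 1 array lowered this count in some fits. Cd74, the invariant chain, read 8.97 and 8.69 in KO against 6.24 and 6.86 in WT, a difference of 2.28 ± 0.41 (limma adjusted p = 0.00325). H2-Aa read 7.68 and 6.90 in KO against 4.10 and 4.25 in WT, H2-Ab1 6.31 and 5.65 against 4.03 and 4.45, and H2-Eb1 6.5 and 6.03 against 4.67 and 4.8. The WT values of these 3 lay below the array medians, so no sizes are given. For H2-Aa and H2-Eb1 the untreated KO arrays lay above the array medians, which alone let them past the low-value filter. The count of 4 is thus partly set by that filter, and its place beside 6.86% carries no weight. Ctss itself read 13.21 and 13 in untreated KO cells against 12.94 and 12.86 in WT, with both KO arrays above both WT arrays and a difference of 0.21 ± 0.14 that was not called (limma adjusted p = 0.344). Of the 5, the 1 higher in KO was H2-Eb1 at 6 h (limma adjusted p = 0.0182) and H2-DMa at 24 h (0.0448), again with WT below the array medians.

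The profile of each called member over the 12 microglia group means was set against 7959 other genes as a description. The groups share arrays, treatment and normalization, so no test was made. Ctsh was most like Gpatch1 (r = 0.95), Ddx52 (0.90) and Cd72 (0.89). Ctsc was most like Rrbp1 (0.96), Sptlc2 (0.94) and Naip2 (0.94), and Ctss most like Enox2 (0.88), Shmt1 (0.88) and Cd53 (0.87). Lamp2 (1416344_at) was most like H2-D1 (0.98), Grn (0.97) and P2rx4 (0.97), and Ctsl most like Pik3r1, Atrx and Sbno1 (0.99 each).

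Probe sets of 1 gene agreed unevenly. The 2 bright Ctsb probe sets 1417490_at and 1448732_at correlated at 0.97 over the 12 microglia group means and at 0.99 over the 6 BV-2 group means. For Lamp2, 1416343_a_at and 1416344_at correlated at 0.89 and 0.99, and 1428094_at with 1434503_s_at at 0.54 and 0.98. Lamp2 1416344_at with 1434503_s_at gave -0.23 in microglia and 0.70 in BV-2 cells, the pair in which WT of run 2 stood below run 1 in 1 and above it in the other. The 3 Ctsz probe sets correlated at 0.63 to 0.96 in microglia and 0.94 to 0.99 in BV-2 cells.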

How the data were processed

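Total RNA of 36 samples was hybridized to Affymetrix arrays of 22690 probe sets. The authors deposited 1 value per probe set and array, read here as a log2 intensity because it ran between 1.664 and 14.031; no log base is stated. Per the submitters' processing notes affy was used. Which summary and normalization method it ran with is a point not given in the sources used here. Array medians were 5.594 to 5.827, and nothing was rescaled. Having 2 arrays per group limits the precision. Of the probe sets 20393 were listed with 1 gene, 691 with several and 1606 were not listed.

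Groups came from the labels and runs from deposition order, used only as a candidate batch. Probe sets brighter than the array median on 2 or more arrays entered a fit, 13569 in microglia (24 arrays, 12 groups), 12231 in BV-2 cells (12 arrays, 6 groups) and 14222 in all. Group means were compared by limma 3.58.1 (R 4.3.3), with Benjamini-Hochberg adjustment over all probe sets kept and a threshold of 0.05. The code was tested on simulated data. Plots used matplotlib 3.10.9 under Python 3.11.15.

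Members and lists were chosen with earlier results of these data known. Named genes were all members, up to 4 called genes of each list per comparison by size, the 3 genes most like each called member, and Usp18. The 165 list genes included 141 on the array. Deviations of same-numbered WT arrays correlated at 0.422 to 0.671 across times in run 1 and 0.291 to 0.493 in run 2, so, with 4 WT cultures, WT numbers were taken to mark a culture; other arms had 2 each. Alternatives were no filter, 1 probe set per gene, median centring, quantile normalization, trend and robust moderation, replicate blocks, run handling, doubted arrays left out, and each array left out in turn. Leaving out an array outside the groups compared keeps the difference, so most leave-outs do not touch it. The 3 doubted arrays were untreated WT replicate 1 of run 2, C61A replicate 2 at 6 h and BV-2 Usp18 siRNA replicate 2 at 6 h.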

Additional observations from a re-analysis of the deposited data

Results flagged for a closer look

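Differences between the KO effect and the C61A effect at 0 h passed the test for 2 of the 18 member probe sets, beside 10.7% of all probe sets. Ctsh (1418365_at) stood 1.68 ± 0.26 higher in the KO effect (limma adjusted p = 0.00227), with both KO arrays above both WT arrays of run 1 and both C61A arrays below both WT arrays of run 2. Ctsc (1416382_at) stood 0.92 ± 0.20 higher (limma adjusted p = 0.0136), again with both KO arrays above and both C61A arrays below their WT arrays. The share of all probe sets with such an order of arrays was not computed. The Ctsc difference was 0.85 (adjusted p = 0.0395) and the Ctsh difference 1.72 (0.00290) without the doubted arrays. Each effect was taken within its own run, and the untreated WT arrays of run 2 include the 1 with raised interferon genes.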

How the results depend on the processing

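Of 134 member counts recomputed under other settings 113 stayed within 1.5 times the count reported. Many of these were counts of 0 that stayed 0, which says little about the called members. Fits that left out 1 array are not among the 134. No called member difference changed sign. Signs of uncalled differences were compared only where at least 1 alternative setting called them, so other uncalled differences may also have changed sign. Among those compared, 3 changed sign without the doubted arrays, all in BV-2 cells at 6 h of IFN-b with Usp18 siRNA. Against 0 h, Ctsb 1417491_at was -0.56 instead of 1.18 and Ctsb 1417492_at -0.11 instead of 0.71. Against control siRNA, Ctsb 1417491_at was -0.23 instead of 1.51. Leaving out 1 array, these ran from -0.56 to 2.92, -0.11 to 1.52 and -0.23 to 3.25. The WT count at 6 h, 1, was 2 with median centring, 3 with a random culture block, and 0 with no run term, an additive run term or run 2 alone. The WT count at 24 h, 1, was 2 with trend and robust moderation or without the doubted arrays, and 0 with no run term or run 2 alone. The KO against WT count at 6 h, 1, was 2 with trend and robust moderation and 0 with run 1 alone; at 24 h, 1, it was 0 with no filter, a random block or run 1 alone. The count in BV-2 cells with control siRNA at 24 h, 0, was 1 with trend and robust moderation. The cause of these changes was not tested.

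As a replicate block, culture (arm, run and replicate number) raised the WT count at 24 h to 6 when fixed and 7 when random, and the BV-2 control siRNA count at 24 h to 2 under either, both for Lamp2. Calls over all probe sets rose too, from 338 to 2182 and 1659 in WT and from 66 to 209 and 195 with control siRNA. Culture as a block raised the C61A count at 24 h, 4, to 5 when fixed (Lamp2 1416344_at added, limma adjusted p = 0.00767) and 6 when random (with 1428094_at, 0.0316). Deviations across times correlated at 0.684 to 0.813 in KO, 0.511 to 0.633 in C61A, 0.363 to 0.506 with Usp18 siRNA and 0.285 to 0.737 with control siRNA. WT had 4 cultures over its runs and these arms 2 each, fewer than 3, so for them the pairing is only a hint. Between arms, deviations of same-numbered arrays correlated at -0.061 to -0.024 for KO and WT, -0.433 to -0.010 for C61A and WT, and 0.276 to 0.460 for Usp18 siRNA and control siRNA. With 2 numbers these were not taken as pairs. The number as a block gave 2 for KO against WT at 6 h and 1 for Usp18 siRNA against control siRNA at 24 h (Lamp2 1428094_at, limma adjusted p = 0.0362). Calls over all probe sets then rose from 1023 to 1733 in the first comparison and from 423 to 2125 in the second. The Ctsh difference between KO and WT responses at 24 h (adjusted p 0.0604) passed with culture fixed (0.0149) or random (0.00648).

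Leaving out 1 array gave counts of 0 to 1 and 1 to 2 for WT at 6 h and 24 h, and 1 to 3, 0 to 1 and 0 to 1 for KO against WT at 0 h, 6 h and 24 h. They were 0 to 4 for C61A at 24 h, 0 to 4 for BV-2 Usp18 siRNA at 24 h, 0 to 1 and 0 to 2 for Usp18 siRNA against control siRNA at 6 h and 24 h, and 8 to 11 for BV-2 cells against WT. With 2 arrays per group, small differences were not resolved.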
